A study of Homo sapiens and Mus musculus with 16 samples.

Results

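Among the accessible chromatin regions found in both a KPC primary tumor cell line and a KPC liver mets cell line, 4797 held a much higher rank in mets than in the primary tumor. Each region of the primary tumor list was paired with the mets region that it overlapped longest, by 1 bp or more, which gave 62280 shared pairs from 68074 primary tumor regions and 80843 mets regions. The deposited score of each region was turned into a percentile among these pairs, separately in each list. Pairs were then chosen by a mets minus primary tumor percentile of 20 points or more. They made up 7.70% of the shared pairs, while 5246 pairs (8.42%) fell by 20 points or more and 52237 moved by less and are called steady here. All 4 lists of the study together held 364071 regions.

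Open chromatin was mapped by ATAC-seq, where a transposase cuts DNA that nucleosomes leave free. The 16 samples came from 4 groups with 4 replicates each. The KPC groups were an untreated mouse cell line from a primary pancreatic tumor and an untreated line from liver mets, both labelled WT for genotype and both pancreatic adenocarcinoma cells grown in culture, which the study describes as matched. KPC mice are an engineered model that develops pancreatic cancer with metastases. The human groups were HPAF-II, an established pancreatic adenocarcinoma line, as Cas9 control and after CRISPR removal of HNF4G, a nuclear receptor (HNF4G-KO). Each site was represented by 1 cell line, so the site and the line cannot be told apart. Each group was represented by 1 region list standing for its 4 replicates. No difference therefore has a replicate check, no test was run, the read depth behind each list is unknown, and every share is a description with a Wilson 95% interval that covers counting error only.

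Accessible regions away from start sites are often enhancers, where transcription factors bind short DNA sequences and act on genes at a distance. RUNX factors direct blood, bone and epithelial programs, FOXA factors open chromatin in pancreas and liver lineages, AP-1 factors (FOS and JUN dimers) mark stimulated or growing cells, and CTCF binds insulators and the anchors of chromatin loops. The percentile ranks a region against the other shared pairs of its own list, so a rise is a gain in rank and not a measured gain in reads.

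Consensus sequences of 10 factor families were searched in 300 bp around the center of each overlap, on both strands. A match is a run of letters and is not evidence that a factor binds. The examples below show the matches, in capitals, with 24 bp on each side, read on the strand that carries the consensus, in mm10 and from the RefSeq copy of that assembly. The RUNX consensus TGTGGTTT lay in members near Sspo (chr6:48510630-48510685, plus strand), Cdh10 (chr15:18064332-18064387, plus strand) and Tnfrsf1b (chr4:145264838-145264893, plus strand), the members with the largest rises to carry it, and in members near Runx3 (chr4:135045225-135045280, plus strand) and Tgfbr3 (chr5:107080004-107080059, plus strand). Members are named after the gene with the nearest protein-coding start site, which for Cdh10 lay 754341 bp away. RUNX and FOXA were added to the sequences shown after their values had been seen.
Sspo: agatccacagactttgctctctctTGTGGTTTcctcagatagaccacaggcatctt
Cdh10: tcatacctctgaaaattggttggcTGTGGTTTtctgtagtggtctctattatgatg
Tnfrsf1b: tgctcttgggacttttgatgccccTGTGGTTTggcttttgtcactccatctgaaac
Runx3: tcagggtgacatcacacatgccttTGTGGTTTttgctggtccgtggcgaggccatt
Tgfbr3: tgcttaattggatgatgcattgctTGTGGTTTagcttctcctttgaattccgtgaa

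The FOXA consensus TGTTTAC is shown for the members with the largest rises that carry it, near Rgl1 (chr1:152497799-152497853), Tas2r134 (chr2:51531620-51531674) and Tmem108 (chr9:103817685-103817739), all on the plus strand.
Rgl1: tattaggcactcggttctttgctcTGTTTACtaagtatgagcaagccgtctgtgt
Tas2r134: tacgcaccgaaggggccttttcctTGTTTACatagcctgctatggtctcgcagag
Tmem108: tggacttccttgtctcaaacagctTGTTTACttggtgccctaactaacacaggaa

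The AP-1 consensus (TGACTCA or TGAGTCA, which are complements of each other) is shown near Rassf10 (chr7:113048626-113048680), Myo3a (chr2:22105302-22105356) and Gm8797 (chr3:6094554-6094608), the largest rises of all 1-to-1 pairs.
Rassf10: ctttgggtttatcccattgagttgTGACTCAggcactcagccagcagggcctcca
Myo3a: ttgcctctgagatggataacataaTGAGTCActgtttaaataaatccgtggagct
Gm8797: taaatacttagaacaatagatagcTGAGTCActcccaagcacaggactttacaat

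The CTCF consensus, which was scarce among the members, is shown near Prpf4b (chr13:34864589-34864648, minus strand), Gpr171 (chr3:59079441-59079500, plus strand) and Rwdd1 (chr10:33986962-33987021, plus strand).
Prpf4b: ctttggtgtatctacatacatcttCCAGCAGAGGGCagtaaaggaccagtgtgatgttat
Gpr171: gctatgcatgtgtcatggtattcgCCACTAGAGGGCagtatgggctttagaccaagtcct
Rwdd1: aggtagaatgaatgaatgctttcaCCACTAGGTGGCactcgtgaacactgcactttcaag

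The members were mostly weak regions of the primary tumor that became regions of middle rank in mets. Their percentile had a median of 22.9 in the primary tumor (range 0.00642 to 75.3) and 56.6 in mets (range 20.2 to 99.3), and the rise had a median of 27.4 points with quartiles of 23.1 and 36.0. Rises of 30 points or more were found for 1941 members, of 40 or more for 847 and of 50 or more for 388. Only 178 members (3.71%) ranked above the 90th percentile of shared pairs in mets. These values were set by the rule and are descriptions. At the threshold, the last pairs left out lay near Ntn4 (19.99 points) and Rapgef5 (19.998 points), and the first pairs kept lay near Gpr84 (20 points) and Tmprss3 (20.005 points).

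Width moved with rank. The members had a median width of 380 bp in the primary tumor and 472 bp in mets, and 80.2% of them were wider in mets, against 28.8% of steady pairs and 3.55% of pairs that fell. Most members (94.0%) paired 1 region with 1 region. That share dropped with the size of the rise, to 12 of 32 among rises of 80 points or more and 3 of 12 among rises of 90 or more. The other pairs joined a region of one list to several of the other. The largest rise of all, 96.9 points near Socs1, and that of 92.8 points near Rnf43 were of this kind. The Socs1 pair overlapped by 6 bp, the shortest overlap of any member, against a median of 362 bp. The part of region width in the rise was not tested.

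The largest rises among 1-to-1 pairs took regions from the bottom of the primary tumor list to the top of the mets list. A region 94258 bp downstream of the start site of Rassf10, a member of the RAS association domain family, went from a percentile of 2.86 to 93.2. Near Myo3a, an unconventional myosin of hair cells, an intergenic region went from 4.59 to 94.9, and a region of 1074 bp in mets near the predicted gene Gm8797 went from 3.66 to 93.8. All of these regions lay between genes, far from any coding start site.

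Several others of the 12 largest rises lay within genes. An intronic region near Rgl1, an exchange factor for Ral GTPases, went from 2.15 to 91.7. Near Pag1, a membrane adaptor that recruits the kinase Csk, an intronic region with AP-1 and GATA matches went from 0.434 to 86.9. The region near Sspo, which encodes the secreted protein SCO-spondin, rose by 86.3 points to 95.5. A region near Cacna2d1, a calcium channel subunit, went from 2.86 to 88.4 and carried none of the 10 consensus sequences. The remaining 5, near Cdh10, Tnfrsf1b (a receptor for tumor necrosis factor), Gm2115, Tas2r134 (a bitter taste receptor) and Tmem108, rose by 80.1 to 85.5 points. The first of them lay 754341 bp upstream of the start site of Cdh10 and within 1 kb of a start site of another gene.

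Of the 6 members with the highest mets rank, 5 started between 36.7 and 62.5 in the primary tumor. The highest, 99.3, belonged to a region 6937 bp upstream of Magi3, a scaffold protein of cell junctions, which stood at 52.2 in the primary tumor. A region 188 bp from the start of the zinc finger gene Zbtb10 went from 62.5 to 99.1. Near the cadherin gene Cdh12 the percentile went from 36.7 to 98.9, and near the transporter gene Abca8a from 58.8 to 98.8. A region 36821 bp downstream of the start of Runx3 went from 42.0 to 98.7. The sixth, upstream of the Hippo pathway scaffold gene Sav1, went from 16.7 to 98.7 and was not a 1-to-1 pair.

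A smaller share of members than of steady pairs lay at promoters. A promoter, here a start site of any gene within 1 kb, was found for 694 of the 4797 members (14.5%, 95% interval 13.5 to 15.5). Steady pairs weighted to the members' distribution of mean percentile and width had 24.8%, and pairs that fell had 20.5% (19.4 to 21.6). Only 303 members (6.32%) covered the start site of a protein-coding gene, against 13.9% of weighted steady pairs. Without weighting, 13.3% of pairs that fell and 19.0% of all shared pairs did. The median distance from a member to the nearest coding start site was 19205 bp. It was 8819 bp for steady pairs and 15148.5 bp for pairs that fell, both without weighting. More than 100 kb away lay 775 members (16.2%), 9.28% of steady pairs and 14.3% of pairs that fell. Of all 62280 shared pairs, 55909 lay within 100 kb.

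Intergenic centers were found for 43.7% of members (42.3 to 45.1), against 40.1% of weighted steady pairs and 37.4% of pairs that fell. Weighting by GC content as well took the difference from steady pairs from 3.59 to 1.78 points. Intronic centers were about as common in members (48.9%) as in weighted steady pairs (47.2%). Base composition moved with position. The members had a median GC content of 47.0%, against 49.7% in steady pairs and 47.3% in pairs that fell, and 4.29% of members had an observed-to-expected CpG ratio of 0.6 or higher, as CpG islands do, against 13.7% of weighted steady pairs and 12.01% of pairs that fell. When the steady pairs were weighted by GC content as well, the promoter share of members lay 3.39 points below theirs instead of 10.3.

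The promoter members with the largest rises, all 1-to-1 pairs over a coding start site, included genes of DNA repair, signaling and metabolism. A region at Gpr141, an orphan receptor gene, went from 10.5 to 74.9. At Ogg1, the glycosylase that removes oxidized guanine from DNA, the percentile went from 0.0763 to 59.3. At Dclk1, a microtubule-associated kinase that marks tuft cells, it went from 3.66 to 61.9, and the region widened from 240 to 1437 bp. At Plxnb2, a receptor for semaphorins, it went from 0.0104 to 57.3. The promoter regions of Plekho2, Ift172 (intraflagellar transport) and Acox2 (a peroxisomal oxidase of bile acid intermediates) rose by 51.9 to 56.1 points, and the first and last of them passed a mets percentile of 80.

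RUNX and FOXA consensus sequences were more frequent in members than in both other classes. RUNX was found in 381 members (7.94%, 7.21 to 8.74), in 4.26% of weighted steady pairs and in 3.18% of pairs that fell (2.74 to 3.69), and 4.44% of all shared pairs held it. FOXA was found in 397 members (8.28%, 7.53 to 9.09), in 5.64% of weighted steady pairs and in 6.58% of pairs that fell (5.94 to 7.28), and 5.94% of all pairs held it. The same letters written backwards, which keep the base composition, were found in 1.33% of members and 1.14% of weighted steady pairs for RUNX, and in 6.73% and 5.68% for FOXA. The FOXA letters therefore differed between members and steady pairs by 2.63 points, and the backward letters by 1.05 points.

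AP-1 and CTCF differed from steady pairs in a way that members shared with pairs that fell. AP-1 was found in 36.1% of members (34.7 to 37.4), in 29.9% of weighted steady pairs and in 37.4% of pairs that fell (36.1 to 38.8), with 31.3% over all shared pairs. CTCF was found in 3.84% of members (3.33 to 4.42), in 7.83% of weighted steady pairs and in 1.22% of pairs that fell (0.957 to 1.55), with 4.80% over all pairs. Members minus pairs that fell gave -1.37 points for AP-1 and 2.62 points for CTCF, and -4.62 and 2.55 points once the pairs that fell were weighted like the steady pairs. Without weighting, steady pairs held CTCF in 5.25% of cases, which made the deficit of members 1.42 points instead of 4.00.

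The other 6 families differed less. The letters AGATAAG, which GATA factors read, were found in 5.38% of members and 4.53% of weighted steady pairs, with 4.53% over all pairs, and in 5.32% of pairs that fell. ETS (CCGGAAGT), a frequent promoter sequence, was found in 0.50% of members, 1.2% of weighted steady pairs and 1.61% of all pairs. TEAD (ACATTCCA) was found in 2.94% and 2.68%, and KLF (GGGCGTGGC or GGGTGTGGC) in 2.63% and 2.60%, with 2.72% and 2.78% over all pairs. HNF4 (CAAAGTCCA) was found in 38 members (0.792%), 0.927% of weighted steady pairs and 0.896% of all pairs, and HNF1 in 16 members (0.334%), 0.27% of weighted steady pairs and 0.234% of all pairs. No consensus was contained in another, and 43.6% of members held none of the 10, against 49.4% of weighted steady pairs.

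The RUNX excess was largest near the centers of the regions. Within 100 bp of the center there were 32.7 RUNX matches per 1000 members per 100 bp, against 16.6 in steady pairs and 12.3 in pairs that fell. At 100 to 200 bp the values were 15.2, 9.92 and 7.43, and 200 to 300 bp away they were 10.5, 8.54 and 7.91. No class was weighted here. FOXA matches near the center numbered 31.9 per 1000 members per 100 bp, against 20.8 in steady pairs and 25.4 in pairs that fell. Farther out, at 200 to 300 bp, FOXA gave 18.3, 15.3 and 15.9. The spread between classes was thus wider near the center for both sequences.

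Among pairs with a mean percentile of 20 to 80, the RUNX share was highest at rises of 30 to 40 points. It was 4.60% (3.39 to 6.20) in pairs that fell by more than 40 points, 2.70% (2.13 to 3.41) in pairs that fell by 20 to 30 points, 4.03% in those that rose by less than 10 points, 6.46% (5.54 to 7.52) at a rise of 20 to 30, 10.3% (8.60 to 12.3) at 30 to 40 and 9.45% (7.65 to 11.6) at 40 or more. FOXA went from 5.34% at a rise under 10 points to 9.80% (7.97 to 11.99) at 40 or more, and lay between 5.52% and 6.65% at falls of 20 points or more. CTCF peaked at 8.03% at a rise under 10 points and dropped on both sides, to 0.945% (8 of 847) at a rise of 40 or more and 0.23% at a fall of more than 40. AP-1 showed the opposite shape, with 27.8% at a rise under 10 points, 38.2% at a rise of 30 to 40 and 40.7% at a fall of 30 to 40.

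Away from promoters, RUNX, FOXA and CTCF differed in the same direction. Of 4103 members there, 8.46% held RUNX against 5.004% of weighted steady pairs, 8.77% held FOXA against 6.39%, and 3.78% held CTCF against 8.57%. AP-1 was found in 38.4% against 34.4%, a difference of 4.06 points instead of 6.21, but without weighting steady pairs there held AP-1 in 38.2% of cases, nearly the same share as members. At promoters, RUNX was found in 34 of 694 members (4.90%, 3.53 to 6.77), against 1.89% of steady promoter pairs without weighting. In the same comparison CTCF was found in 29 (4.18%, 2.93 to 5.94) against 2.56%, so its scarcity in members did not extend to promoters.

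The 6-base sequences with the largest excess in members were read from 2080 possible, each counted together with its complement in the same 300 bp. ACCACA, whose complement TGTGGT opens the RUNX consensus, was found in 36.0% of members and 27.4% of weighted steady pairs, with 27.3% over all pairs. TAAACA, whose complement TGTTTA opens the FOXA consensus, was found in 27.2% and 18.8%, with 18.9% over all pairs. The next 4 were rich in adenine. They were AATAAA (30.02% of members), then AAACAA (33.6%), followed by AAATAA (28.2%) and lastly AACAAA (32.1%), which exceeded weighted steady pairs by 7.42 to 8.12 points. The largest deficits belonged to sequences of cytosine and guanine alone, as in promoter CpG islands. The widest was that of CGCCCC, in 6.52% of members and 14.9% of weighted steady pairs, with 16.6% over all pairs. Then came GCCCCC (11.5% and 19.0%), followed by CCGCCC (8.63% and 16.1%), by GCGCCC (4.40% and 11.7%), by CCCGCC (8.88% and 16.01%) and by CCCCGC (7.38% and 14.2%).

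Chromosomes contributed unequally. On chromosomes 10 and 13, 13.4% (12.2 to 14.6) and 13.3% (12.1 to 14.6) of shared pairs were members, and 5.65% and 4.81% fell. Chromosome 8 lay at the other end, with 3.52% (2.94 to 4.23) members and 14.9% that fell. The median change over all shared pairs was 3.26 points on chromosome 10, 3.62 on chromosome 13 and -3.84 on chromosome 8. Chromosomes 10 and 13 together held 782 members (16.3%) and 9.41% of shared pairs. On these chromosomes 7.54% of members held RUNX and 8.31% FOXA, and on the others 8.02% and 8.27%.

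Most members stood alone, with a pair of another class on either side. Of all members 73.5% had no member as the next shared pair, and the longest runs held 9 consecutive members. As members made up 7.70% of shared pairs, most would stand alone under an even spread too. The share alone therefore does not show that members were scattered, and clustering was not tested. One run of 9 lay on chromosome 3 from 9249675 to 9767698 across Zbtb10, Zfp704 and Pag1, with rises of 24.7 to 86.4 points. The other lay on chromosome 2 from 133749721 to 134461174 between Bmp2, a BMP ligand, and Hao1, a peroxisomal oxidase, with rises of 20.2 to 63.6 points. Among 1240 windows of 1 Mb with at least 20 shared pairs, the median share of members was 6.25%. The highest was 43.5% (10 of 23) on chromosome 3 between 9 and 10 Mb, around the first of these runs. Windows near Hao1 (10 of 27), Prdm1 (13 of 37), Bach2 (9 of 27) and Khdc1b and Kcnq5 (8 of 24) followed.

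Each pair was assigned to the protein-coding gene with the nearest start site within 100 kb. Of 14949 genes with a shared pair, 3016 had at least 1 member and 704 had 2 or more. Pde4d, a phosphodiesterase that degrades cyclic AMP, had the most, 10 of 65 shared pairs, with rises of 22.2 to 56.0 points. Bach2, a transcriptional repressor of lymphocytes, had 9 of 20, with none that fell. Near it the lists held 10 further regions only in mets and 0 only in the primary tumor. The mets list was the longer one over all regions, with 80843 against 68074, and 62280 of the primary tumor regions had a mets overlap. Over the whole lists, regions only in mets thus outnumbered those only in the primary tumor by more than the list lengths show. The counts near single genes were not tested against that background. Near Pde4d, 18 regions were only in mets and 6 only in the primary tumor. Nfatc2, a transcription factor activated by calcium signaling, had 8 of 15 and none that fell. A pair of the Pde4d members, and a pair of those near Lhfpl2, shared 1 mets region.

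Within these loci the members spanned a wide range of ranks. The 7 of 19 pairs near Lhfpl2, a tetraspan membrane protein, started between 1.35 and 49.9 and ended between 26.2 and 85.4. The 6 of 9 near Prdm1, a transcriptional repressor active in lymphocytes and epithelia, ended between 46.0 and 70.3. Members near Vav3 (6 of 24), a guanine nucleotide exchange factor, reached 92.4. All 5 shared pairs near Cnksr3, a scaffold of sodium channel signaling, were members, and they rose by 33.6 to 78.8 points. Those near Mast4 (5 of 11), a kinase, and Rarb (5 of 9), the retinoic acid receptor beta, rose by up to 58.7 and 64.7 points, and those near Dlgap1 (6 of 22), a synaptic scaffold, by up to 64.3.

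Lists of genes were read against the share over all pairs within 100 kb of a coding start site, of which 7.19% rose and 8.04% fell. The 15 lists covered 390 genes. Their intervals were not widened for the number of lists, so counting error alone can leave an interval outside the overall share. The median change over all pairs within 100 kb was 0.182 points, and the list medians ran from -0.886 to 2.43 points. The share of members ran from 4.00% to 11.6%, and the interval left out 7.19% only for genes of epithelial-mesenchymal transition, with 18 of 155 (11.6%, 7.47 to 17.6) and 14 that fell. For that list the interval of the difference of 4.42 points from all pairs took in 0 under 3 alternatives: 3.80 points with 1-to-1 pairs only, 5.07 with percentiles among all regions of each list and 1.54 when a pair was counted for every list gene within 50 kb. The gene of that list with the most members was an epithelial one. Grhl2, which maintains the epithelial state, had 5 of 12, rising by 21.6 to 44.9 points, and Epcam, an epithelial adhesion molecule, had 2 of 11. The TGF-beta genes Smad3 (3 of 24) and Tgfbr2 (2 of 15, with 2 that fell) also counted in it.

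Ligands, receptors and mediators of other signaling lists held single loci with many members. The TGF-beta and BMP list had 16 of 195 (8.21%), and all 4 shared pairs near Tgfbr3, the co-receptor betaglycan, were members. Their percentiles went from 8.69 to 64.7, from 23.9 to 85.9, from 62.8 to 95.5 and from 13.5 to 66.2, and the second held the RUNX match printed above. The Wnt list had 14 of 189 (7.41%), with 2 of 7 near the feedback inhibitor Axin2 and 2 of 3 near the stem cell receptor Lgr5, 1 of which reached 94.5. Chemokines and inflammation had 16 of 153 (10.5%), with 3 of 15 near Ptgs2, which makes prostaglandins, and 3 of 13 near the cytokine gene Il33. Receptor tyrosine kinases and the RAS pathway had 12 of 208 (5.77%), including a region near Braf that went from 24.5 to 77.5. Axon guidance had 16 of 264 (6.06%), with 3 of 13 near the receptor gene Nrp2.

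Among transcription factor lists, RUNX, TEAD and YAP factors had 13 of 143 members (9.09%), and 5 of them lay near Runx3, out of 7 shared pairs there. Beside the region that reached 98.7, the Runx3 members went from 30.4 to 68.9, 20.7 to 45.0, 3.02 to 26.6 and 29.9 to 57.4, and none of the 7 pairs fell. Tead1 had 3 of 21. Pancreas and endoderm lineage factors had 7 of 150 (4.67%), with 2 of 14 near Ehf and 2 of 4 near Onecut1, and 16 fell. AP-1 factors had 3 of 70 (4.29%), near Jun and Fos.

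Of the remaining lists, lipid metabolism and integrins and matrix lay above 7.19%, and the others below it. The lipid list had 18 of 194 (9.28%), and all 3 shared pairs near the cholesterol exporter gene Abca1 were members, with rises of 73.1, 36.5 and 42.7 points. Integrins and matrix had 23 of 253 (9.09%), with 3 of 14 near Itga2, a collagen receptor subunit, and 3 of 19 near Col5a1. Glycolysis and hypoxia had 8 of 135 (5.93%), 3 of them near Epas1, which encodes the hypoxia factor HIF-2 alpha and had 4 shared pairs. Interferon and antigen presentation had 6 of 101 (5.94%), MYC and cell cycle 8 of 140 (5.71%), and arginine methyltransferases and chromatin regulators 5 of 125 (4.00%), with 12.8% that fell.

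The genes at the center of the study had few members, but also few shared pairs. Over all pairs within 100 kb of a coding start site 7.19% were members, and counts this small were not tested against that share. Hnf4g had 1 of 6 shared pairs, an intergenic region 4191 bp upstream of its start that went from 13.5 to 55.4, while 1 other fell. Foxa1 had 0 of 8, with 2 that fell and a median change of -12.5 points. Gata6 had 0 of 7, with 1 that fell, Hnf4a 0 of 6, Myc 0 of 12 and Prmt1 0 of 2.

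The markers of the labelled cell type were in both lists. All 8 genes of the ductal epithelium list, Krt8, Krt18, Krt19 and Epcam among them, had a region over a start site in the primary tumor and in mets. Of 8 hepatocyte genes, 2 (Apob and Ttr) had such a region in the primary tumor and 1 (Apob) in mets, and Alb had none in either. Of 8 fibroblast genes only Pdgfra had one, of 8 leukocyte genes only Cd68, and of 5 endothelial genes Kdr and Vwf, in both lists alike. No member covered the start site of any of these marker genes. Near Apob, 3 of 16 shared pairs were members, and the largest rise took an intronic region from 6.72 to 76.7.

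Promoter members were looked up in the human lists, which the rule did not use. Of 295 genes with a member over a start site, 260 had a human coding gene of the same symbol, and 222 of these (85.4%, 80.6 to 89.2) had an accessible start site in HPAF-II control cells. The share was 93.1% (92.5 to 93.6) for genes of steady pairs and 87.6% (84.8 to 90.01) for genes of pairs that fell. These classes were not weighted to the members' rank and width here. In HNF4G-KO cells it was 85.4%, 93.6% and 88.6%. The interval for members lay below that for steady pairs and overlapped that for pairs that fell.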

How the data were processed

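ATAC-seq region lists of 4 groups (1 list for 4 replicates each) were used as deposited. Column 5 holds the authors' score of each region, whose scale is not stated, so this deposited score was used only by rank within its list. The submitters' processing notes name Bowtie2 2.2.6, MACS2 2.1.1.20160309 and DiffBind, with builds mm10 and hg38. Their roles, the read shift and the combination of replicates are not given in the sources used here, and the study's methods for ATAC-seq name HPAF-II only. Per-replicate reads were not analysed here, and depth is unknown.

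Python 3.11.15, NumPy 2.4.6, pandas 2.3.3 and SciPy 1.17.1 were used. Ties in score took average ranks. In 3 cases the longest overlap was tied. Steady pairs were weighted to the members over 10 bands of mean percentile and 5 of joint width. Start sites came from GENCODE vM21 (mouse) and v44 (human). Coordinates are 1-based. The pairing and weighting were tested on simulated data. The members, gene lists and comparisons were chosen with earlier results of these data known, and the gene lists were written from memory. The genes named are the 12 largest 1-to-1 rises, the 10 genes with the most members, up to 4 genes per list, the 6 highest mets percentiles, 8 promoter members, the pairs at the threshold, 5 windows, carriers of the AP-1 and CTCF sequences and 6 genes of the study. RUNX and FOXA carriers were added later. One promoter member is not reported here. A few genes outside this rule, Alb among them, appear as markers.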

Additional observations from a re-analysis of the deposited data

How the results depend on the processing

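No paired analysis was possible because each group is represented by 1 region list and no value per replicate was used. For the same reason no replicate could be left out. Differences below are in percentage points and, for shares of members, are members minus weighted steady pairs. For gene lists they are the share of a list's pairs that rose minus that of all pairs within 100 kb of a coding start site. Of 336 recomputed values 281 stayed within the counting interval of the value reported, 51 moved outside it, and 4 changed sign from a value whose interval left out 0. A further 28 changed sign from a value whose interval held 0. The number of members has no such interval, so it was counted as staying or moving by its ratio to the number reported. The 281 values include those under a minimum width of 200 bp for both regions. No region was narrower than 200 bp, so that alternative could change nothing and its values test nothing. All 4 reversals came from setting members beside pairs that fell, weighted like the steady pairs: AP-1 -4.62, CTCF 2.55, GATA -0.12 and ETS 0.135. That comparison also gave promoters -1.56, intergenic centers 5.77, mets-only regions within 10 kb 7.33, FOXA 1.43, TEAD -0.951, KLF 1.03 and RUNX 4.69. Without weighting the pairs that fell, the differences were -1.37 for AP-1, 0.06 for GATA, 0.0047 for ETS and -5.99 for promoters, so GATA did not reverse.

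The number of members was 8003 with percentiles among all regions of each list, 12473 at a threshold of 10 points and 1941 at 30. Percentiles among all regions gave promoters -7.35, AP-1 3.12, CTCF -2.56, ETS -0.389 and RUNX 2.85. A threshold of 10 points gave promoters -6.56, AP-1 3.52, CTCF -2.36, RUNX 2.37 and the interferon list -4.65. A threshold of 30 points gave promoters -12.1, intergenic centers 5.72, CTCF -4.59, RUNX 5.50, the chemokine list -1.52 and a spread between the highest and lowest autosome of 4.67 points instead of 9.83. Percentiles within each chromosome gave 1.63 for mets-only regions within 10 kb instead of 2.87, and 1-to-1 pairs only gave -4.65 for the MYC and cell cycle list.

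Without weighting, promoters were at -16.5, CTCF at -1.42 and ETS at -1.32. Weighting by GC content as well gave promoters -3.39, intergenic centers 1.78, FOXA 1.86, GATA 0.17, AP-1 3.201, ETS -0.313 and KLF 0.564, and RUNX stayed at 3.04. Promoters within 500 bp gave -9.24, and mets-only regions within 50 kb gave 6.29. Searching the whole extent of both regions gave GATA 1.66, ETS -0.983, KLF -0.515 and RUNX 4.74, and searching 150 bp gave AP-1 4.23, CTCF -2.99, ETS -0.425 and RUNX 2.58. Pairs away from promoters, an alternative chosen after seeing the data, gave AP-1 4.06, CTCF -4.79 and ETS -0.256. Leaving out chromosomes 10 and 13, also chosen after seeing the data, moved no share outside its interval. Where no cause is given for a shift, the cause was not tested.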

Other observations

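Pairs of consensus sequences in the same 300 bp were counted as well. RUNX and FOXA together were found in 33 members (0.688%, 0.490 to 0.965), in 0.267% of weighted steady pairs and in 0.191% of pairs that fell. RUNX and AP-1 together were found in 114 members (2.38%, 1.98 to 2.85), against 1.27% and 1.16%, and FOXA and AP-1 together in 124 members (2.58%), against 1.75% and 2.25%.

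Members that ended above the 80th percentile in mets held AP-1 in 48.7% of cases (326 of 669, 45.0 to 52.5), against 38.3% of steady pairs above that rank, without weighting. In the same members RUNX was found in 8.67% against 5.08%, FOXA in 10.2% against 6.42% and CTCF in 1.49% against 1.02%.

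A region found only in mets lay within 10 kb of 1206 members (25.1%, 23.9 to 26.4), of 22.3% of weighted steady pairs and of 18.0% of pairs that fell. A region found only in the primary tumor lay within 10 kb of 9.82% of members, 12.6% of weighted steady pairs and 12.7% of pairs that fell. These counts come from the same contrast as the choice of members and are descriptions.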
